A study of Mus musculus with 2 samples.

Results

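The genes described here are 10 genes of glycolysis (*Slc2a1*, *Hk1*, *Hk2*, *Pfkl*, *Aldoa*, *Pgk1*, *Pgam1*, *Eno1*, *Pkm* and *Ldha*), chosen by name, with earlier results of these data known, out of 32285 gene identifiers in the count matrices. They were followed in 2 droplet scRNA-seq libraries of melanocyte-lineage cells from mouse back skin, 1 of activated melanocyte stem cells (McSCs) from early-anagen hair follicles (HFs) and 1 of differentiated melanocytes from mature hair bulbs. Both libraries came from *Dct-rtTA; tetO-H2B-GFP* mice, which in the study's methods were given a doxycycline diet for 4 days. The early-anagen mice were depilated at 8 weeks of age and their anagen II HFs were taken 4 days later, whereas the bulb mice were 5 weeks old, with HFs in anagen VI. In each library the cells of 4 mice had been pooled before sequencing, so that no value can be traced to 1 mouse. GFP in this line is switched on through *Dct*, a melanocyte pigment enzyme gene, and the GFP+ sort therefore kept cells that use this promoter. The early-anagen library was made with the v3 droplet kit and the bulb library with the v2 kit, and the skin was dissociated by different enzymes. Kit, dissociation, age, depilation and cell state cannot be told apart, because each condition had 1 library.

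Cells were kept with at least 1 *Dct* UMI, fewer than 3 UMIs of the keratinocyte genes *Krt10* and *Krt14* together, less than 5% mitochondrial UMIs, and more than 10000 UMIs for early anagen or more than 5000 UMIs for the bulb. A UMI marks 1 captured RNA molecule. This left 2785 of 11010 barcodes as McSCs, with 75718468 UMIs in all, a median of 24528 UMIs and a median mitochondrial share of 3.07%. It left 3734 of 4327 barcodes as bulb melanocytes, with 55883067 UMIs, a median of 14287 UMIs and a median mitochondrial share of 2.78%. No barcode was shared between the kept cells (1 was shared before the filter). All 8 melanocyte markers fixed for the label check were detected in both libraries, from *Sox10* at 120 to *Dct* at 7799 UMIs per 1000000 UMIs (CPM) in McSCs and from *Kit* at 108 CPM to *Mlana* at 20325 CPM in the bulb. Markers of other cells were low, with 8 keratinocyte genes summing to 44.0 CPM in McSCs and 46.8 CPM in the bulb, where 4 of the 8 were at 0, and 5 immune genes summing to 16.7 and 7.59 CPM. *Dct*, *Krt10* and *Krt14* are among these markers and were also used in the filter, so their levels were partly fixed by it. The keratin limit itself cut through cells of like level. The 247 McSCs with 2 keratin UMIs had a summed level of the 10 genes of 2883 CPM and the 96 with 3 had 2965 CPM, against 9112 CPM for 99 bulb cells with 2 and 8688 CPM for 17 with 3.

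Glycolysis breaks glucose down to pyruvate in the cytosol and yields ATP without oxygen. Transporters bring glucose in, hexokinase traps it by adding a phosphate, phosphofructokinase commits it to the pathway, and aldolase splits the sugar into a pair of triose phosphates that later enzymes turn into pyruvate. Lactate dehydrogenase then regenerates NAD+ by reducing pyruvate to lactate. Many genes of glycolysis have hypoxia response elements, at which hypoxia-inducible factor (HIF) binds a short core. E-boxes are other short motifs, at which MITF, the lineage factor of melanocytes, and MYC can bind.

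The promoters of 4 members on which the comparisons turn are shown to give their sequence context, namely the hexokinase pair *Hk1* and *Hk2*, whose levels moved apart, and *Aldoa* and *Ldha*. Each run is the 250 bases before an annotated start site in the RefSeq promoter table (GRCm38.p6), written 5′ to 3′ on the strand of the gene. Capitals mark ACGTG and GCGTG on either strand, so that a capital CACGT or CACGC is the same motif read on the other strand, and neighbouring matches can share bases.
Hk2 (chr6:82774455-82774704, minus strand): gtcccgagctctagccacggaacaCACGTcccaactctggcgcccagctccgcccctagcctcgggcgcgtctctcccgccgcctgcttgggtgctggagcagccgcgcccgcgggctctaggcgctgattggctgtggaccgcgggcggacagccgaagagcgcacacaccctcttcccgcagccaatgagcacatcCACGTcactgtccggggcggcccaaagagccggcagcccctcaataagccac
Hk1, upstream start site (chr10:62379909-62380158, minus strand): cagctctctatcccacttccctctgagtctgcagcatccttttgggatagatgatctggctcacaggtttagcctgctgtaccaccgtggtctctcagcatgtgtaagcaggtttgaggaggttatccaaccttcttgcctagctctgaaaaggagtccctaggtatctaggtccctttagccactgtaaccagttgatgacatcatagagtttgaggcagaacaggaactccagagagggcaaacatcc
Hk1, downstream start site (chr10:62340422-62340671, minus strand): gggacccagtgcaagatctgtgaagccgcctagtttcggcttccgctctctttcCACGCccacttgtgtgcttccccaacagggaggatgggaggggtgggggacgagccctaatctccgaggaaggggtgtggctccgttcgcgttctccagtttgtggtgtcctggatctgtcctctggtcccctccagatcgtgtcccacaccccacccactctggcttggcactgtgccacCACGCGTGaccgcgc
Aldoa, the second of 3 start sites (chr7:126799255-126799504, minus strand): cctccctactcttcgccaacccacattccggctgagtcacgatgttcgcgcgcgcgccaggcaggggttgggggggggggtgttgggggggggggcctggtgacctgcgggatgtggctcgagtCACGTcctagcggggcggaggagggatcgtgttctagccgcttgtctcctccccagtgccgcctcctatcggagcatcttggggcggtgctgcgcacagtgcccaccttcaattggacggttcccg
Ldha, upstream start site (chr7:46845554-46845803, plus strand): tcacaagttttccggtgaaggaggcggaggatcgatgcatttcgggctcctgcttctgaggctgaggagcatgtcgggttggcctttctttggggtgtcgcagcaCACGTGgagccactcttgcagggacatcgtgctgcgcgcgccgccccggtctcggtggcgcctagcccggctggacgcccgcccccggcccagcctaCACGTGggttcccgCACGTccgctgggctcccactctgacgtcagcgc

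The table held 17 promoters for the 10 members, and 14 of them held ACGTG or GCGTG within these 250 bases, as did 38.6% of all 32851 promoters in the table. All 10 members had the motif in at least 1 of their promoters. The 38.6% is a share of promoters, and a share per gene was not counted over all genes. ACGTG was in 8 of 17 (16.6% of all promoters) and GCGTG in 8 of 17 (28.2% of all). The E-box CACGTG was found in 1 of 17, the upstream *Ldha* promoter, where it occurs at 2 places (6.02% of all promoters hold it), and TCATGTG, searched on both strands, was found in 0 of 17 (3.25% of all). Start sites of 1 gene can lie so close that their runs overlap, as for *Aldoa* and *Eno1*. The first of the 3 *Aldoa* promoters, not printed above, held neither ACGTG nor GCGTG. The second, printed above, and the third each held ACGTG, which is the same site in the overlap of their runs. The downstream *Ldha* promoter, also not printed, held GCGTG. Member promoters were richer in G and C, with a median of 64.0% against 52.4% for all promoters. These are letter matches and describe no binding.

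The level of a gene in a group of cells is its share of all UMIs of that group, scaled to CPM. The libraries count 3′ ends, 1 per molecule, so that levels were compared between groups of cells and not between genes. Intervals are exact 95% Poisson intervals of the counts, or of the ratio of 2 counts, and cover counting error only. Each condition had 1 library, so the conditions could not be tested against each other, and groups of cells within a library were not treated as replicates. A gene is therefore described by its ratio, and a ratio of at least 1.5-fold is used as a fixed mark of size.

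In bulb melanocytes 9 of the 10 genes were at least 1.5-fold higher than in early-anagen McSCs and 0 were at least 1.5-fold lower. Over all 7292 genes with a mean of at least 10 CPM, 27.1% were at least 1.5-fold higher and 36% at least 1.5-fold lower. The median log2 ratio of the members was 1.67, with 1.61 and 1.73 as the medians of their lower and upper bounds, against -0.11 for all genes. The summed level of the 10 genes was 9436 CPM in the bulb and 2922 CPM in McSCs.

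**Figure D1:**
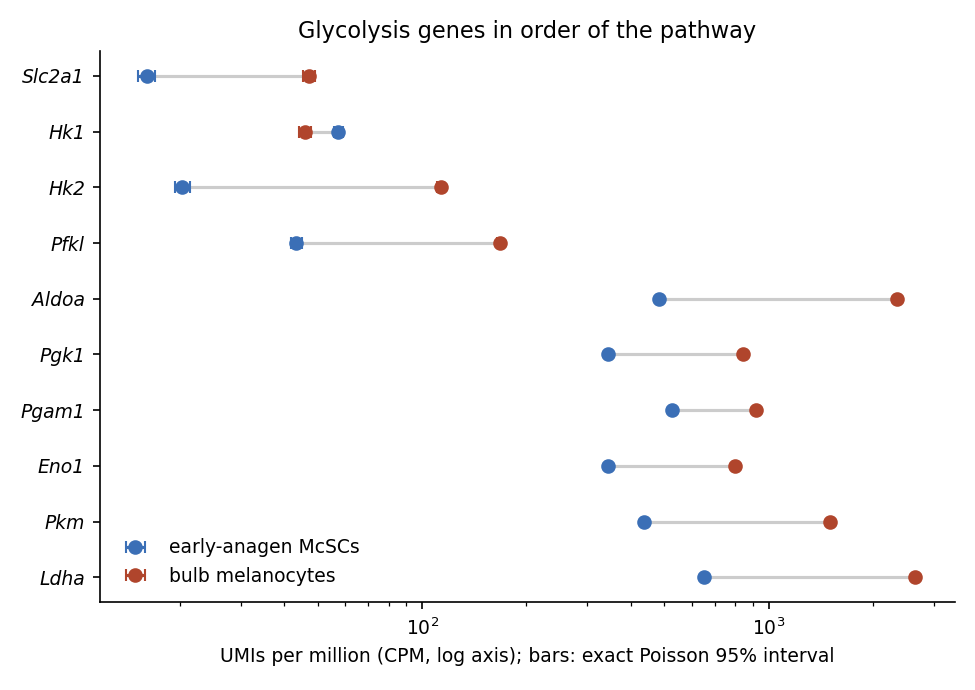
Levels of the 10 glycolysis genes in early-anagen McSCs (blue) and bulb melanocytes (red), in pathway order from top to bottom. The x axis is CPM on a log scale, each point is 1 library and bars are exact Poisson 95% intervals; every gene except *Hk1* lies further right in the bulb, with *Hk2* going from 20.3 to 113 CPM.

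At the entry to the pathway, *Slc2a1* (chr4:119108711-119137983, plus strand), which encodes the glucose transporter GLUT1, was at 16.1 CPM in McSCs and 47.2 CPM in the bulb. The difference, bulb against early anagen, came to 1.56 on the log2 scale (1.46 to 1.66), or 2.94-fold. The hexokinases went different ways. *Hk2* (chr6:82725025-82774454, minus strand), the inducible hexokinase, was at 20.3 CPM in McSCs and 113 CPM in the bulb, which gave the largest log2 ratio of the members, 2.48 (2.40 to 2.56), or 5.57-fold. *Hk1* (chr10:62268855-62379908, minus strand), the hexokinase found in most tissues, was the only member with the lower level in the bulb, at 46.0 CPM against 57.3 CPM in McSCs. The log2 ratio of *Hk1* was -0.32 (-0.39 to -0.25). With trimmed mean of M values (TMM) factors, which move every log2 ratio up by 0.31, it was -0.00, and with *Oca2*+ cells of both libraries alone it was 0.08, the only alternative under which its sign turned.

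Among the middle steps, *Pfkl* (chr10:77986947-78010083, minus strand), the liver-type subunit of phosphofructokinase, was at 43.4 CPM in McSCs and 167 CPM in the bulb, a log2 ratio of 1.95 (1.89 to 2.01). *Aldoa* (chr7:126795234-126800751, minus strand), the aldolase of muscle and most other tissues, was at 483 and 2347 CPM, with a log2 ratio of 2.28 (2.26 to 2.30). This was the second largest ratio after *Hk2*. The symbol *Aldoa* stands for 2 identifiers in the matrices, and the other (chr7:126800790-126809108, minus strand) held 10 UMIs in McSCs and 0 in the bulb against 36547 and 131157 for the main one.

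*Pgk1*, *Pgam1* and *Eno1*, of the steps after the triose phosphates, had smaller ratios than the other members that were higher in the bulb. *Pgk1* (chrX:106187100-106203699, plus strand), the phosphoglycerate kinase that makes ATP, was at 345 CPM in McSCs and 844 CPM in the bulb, a log2 ratio of 1.29 (1.27 to 1.31). *Pgam1* (chr19:41911923-41918660, plus strand), the mutase that follows, was at 525 and 922 CPM and had the smallest ratio of the 9 genes that were higher, 0.81 (0.79 to 0.83), or 1.76-fold. *Eno1* (chr4:150236721-150248879, plus strand), the ubiquitous enolase, was at 345 and 798 CPM, with a log2 ratio of 1.21 (1.19 to 1.23). *Eno1b*, a gene of nearly the same sequence, can share reads with it, and the sum of both gave 1.23. Copies and pseudogenes of other members could likewise divert reads.

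At the end of the pathway, *Pkm* (chr9:59656368-59679375, plus strand), the pyruvate kinase of muscle and dividing cells, was at 436 CPM in McSCs and 1502 CPM in the bulb, with a log2 ratio of 1.78 (1.77 to 1.80). *Ldha* (chr7:46841475-46855627, plus strand), lactate dehydrogenase A, was at 652 and 2649 CPM, with a log2 ratio of 2.02 (2.01 to 2.04). Hexokinase 2, aldolase A and lactate dehydrogenase A thus had the 3 largest ratios of the 10 members, at or above the 96.4th percentile of all genes, and *Hk1* stood at the 43.6th.

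Depth, kit and cell class moved with this comparison, and their part in it was not tested beyond the values that follow. In cells of 10000 to 20000 UMIs of both libraries, a choice made after the data were seen, the median log2 ratio of the members was 1.89. In cells that carried *Oca2* and no *Mki67* or *Top2a* UMI in both libraries the median was 1.58, against -0.11 for all 7180 genes. There 9 members were at least 1.5-fold higher, and the share of all genes past this mark was not counted in these cells. *Hk2* stood at 1.29 (1.13 to 1.45), at the 92.4th percentile of all genes, in place of 2.48.

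Other genes of the same steps were read beside the members. Of 23 such genes in the matrices, 8 reached 10 CPM in a library, and 6 of these were at least 1.5-fold higher in the bulb and 0 lower, with a median log2 ratio of 1.49. Of all genes, 27.1% were higher and 36% lower by this mark. *Aldoc*, the aldolase best known from brain, was at 2.83 CPM in McSCs and 61.6 CPM in the bulb, a log2 ratio of 4.45 (4.25 to 4.65). *Ldhb*, the dehydrogenase that favours lactate to pyruvate, was at 240 and 884 CPM, a log2 ratio of 1.88 (1.86 to 1.91) close to that of *Ldha*. *Pfkp*, the platelet-type phosphofructokinase, was higher by 1.86, *Eno1b* by 2.97, *Tpi1*, which interconverts the trioses, by 1.13, and *Bpgm*, a bisphosphoglycerate mutase, by 0.69 on the log2 scale. *Gpi1*, glucose phosphate isomerase, and *Gapdh*, glyceraldehyde phosphate dehydrogenase, were under the mark, at 0.45 and 0.25. *Gapdh* was at 1803 CPM in McSCs and 2152 CPM in the bulb.

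The handling of pyruvate and lactate differed by gene. *Slc16a3*, the lactate exporter MCT4, was at 2.43 CPM in McSCs and 62.4 CPM in the bulb, a log2 ratio of 4.68 (4.47 to 4.90). *Slc16a1*, the transporter MCT1, went the other way, from 27.2 to 9.59 CPM (-1.50, -1.64 to -1.36). *Bsg*, their chaperone basigin, was at 652 and 1576 CPM (1.27), and *Mpc1* and *Mpc2*, which form the carrier that brings pyruvate into mitochondria, were higher by 1.09 and 0.72. *Dld*, a subunit of pyruvate dehydrogenase, was at 73.1 and 51.5 CPM (-0.51). In all, 5 of 9 genes of this list at 10 CPM or more in either library were at least 1.5-fold higher and 1 was lower. The shares of all genes were 27.1% and 36%.

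Regulators of flux included 4 genes at 10 CPM or more in either library. *Txnip*, which restrains glucose uptake, was at 176 CPM in McSCs and 17.1 CPM in the bulb, a log2 ratio of -3.36 (-3.46 to -3.27). *Pdk1*, a kinase that switches pyruvate dehydrogenase off, was at 4.33 and 12.7 CPM (1.55), *Pdk3*, of the same family, at 23.9 and 33.5 CPM (0.49), and *Pdp1*, the opposing phosphatase, at 10.8 and 5.37 CPM (-1.01). Thus 1 gene was higher and 2 were lower by at least 1.5-fold, beside 27.1% and 36% of all genes. *Pdk1* and *Pdp1* reached 10 CPM only in the library where they were higher. Their means were under the 10 CPM that those shares require, so the count and the shares rest on unlike limits.

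Genes of HIF signalling outside glycolysis were split. Of 14 genes at 10 CPM or more in either library, 6 were at least 1.5-fold higher and 6 lower, beside 27.1% and 36% of all genes. Those shares require a mean of 10 CPM, which *Vegfa*, counted as lower, did not reach. The median log2 ratio of the 14 was -0.00. The higher ones included *Bnip3*, a mitophagy receptor, at 7.46 CPM in McSCs and 96.4 CPM in the bulb (3.69), *Adm*, the peptide adrenomedullin, at 10.1 and 78.4 CPM (2.96), and *Higd1a*, a mitochondrial protein, at 186 and 681 CPM (1.87). Among the lower ones were *Egln1*, the prolyl hydroxylase that marks HIF for destruction, at 65.5 and 7.19 CPM (-3.19), *Vegfa*, at 10.2 and 1.41 CPM (-2.85), and *Hif1a* itself, at 101 and 38.4 CPM (-1.39). Of other regulators, *Ppargc1a*, a coactivator of mitochondrial genes, was at 30.7 and 6.76 CPM (-2.18), *Myc* at 19.8 and 6.48 CPM (-1.61) and *Mitf* at 446 and 330 CPM (-0.44). By at least 1.5-fold, 0 of 4 were higher and 3 lower, beside 27.1% and 36% of all genes. *Mlxip*, among the lower ones at 11.8 and 5.67 CPM, also had a mean under this limit.

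Side pathways were mixed. For the counts that follow, 27.1% of all genes were at least 1.5-fold higher and 36% lower. Of 7 genes of the pentose phosphate pathway, 3 were higher and 1 lower, with *Pgd* at 35.1 CPM in McSCs and 114 CPM in the bulb (1.71) and *G6pdx*, the entry enzyme, at 12.3 and 38.8 CPM (1.65), whereas *Pgls* was at 306 and 195 CPM (-0.65), *Rpia* at 20.7 and 13.9 CPM (-0.58), *Taldo1* at 251 and 321 CPM (0.36) and *Tkt* at 236 and 228 CPM (-0.05). Of 3 gluconeogenesis genes at 10 CPM or more in either library, *G6pc3* was higher (1.60), *Pck2* lower (-2.80) and *Pcx* between (0.49). *Pck2* and *Pcx* had means under the 10 CPM that the shares require. Genes of dissociation and stress moved with the libraries, 2 of 19 being higher and 11 lower in the bulb, with *Dusp1* at 42.2 and 259 CPM, *Fos* at 374 and 640 CPM, *Hspa1a* at 351 and 5.06 CPM, *Hspa1b* at 257 and 0.13 CPM, *Hspa8* at 2142 and 1647 CPM, and *Jun* at 718 and 479 CPM in McSCs and the bulb, and a log2 ratio of -1.21 for *Hsp90aa1*. Their part in the levels of the members was not tested.

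**Figure D2:**
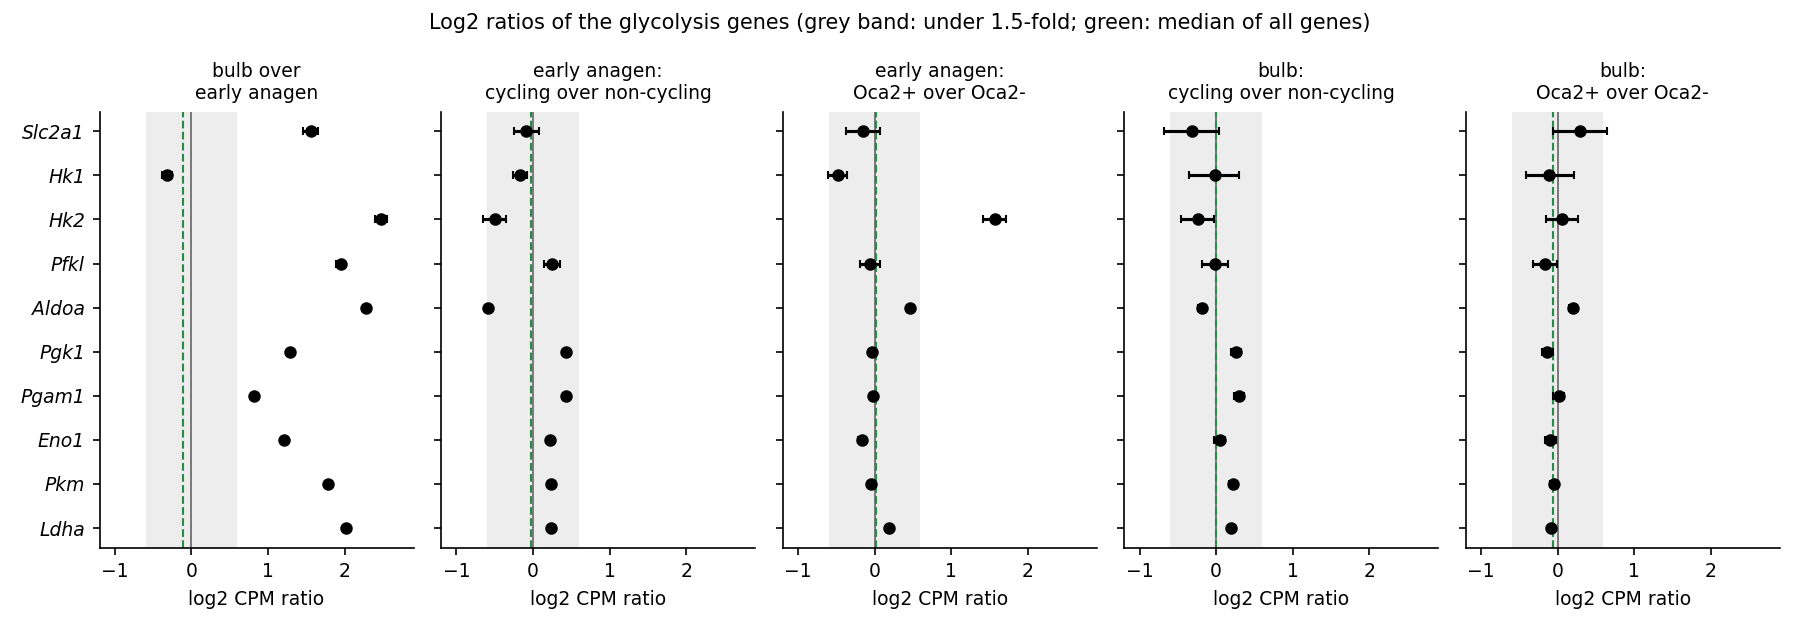
Log2 CPM ratios of the 10 genes (y axis) in 5 comparisons, with exact Poisson 95% intervals as bars; the grey band spans ratios under 1.5-fold and the green dashed line is the median of all genes. Of the 10 points, 9 lie right of the band for bulb over early anagen, *Hk2* alone does so for *Oca2*+ over *Oca2*- McSCs at 1.57, and 0 leave the band in the other 3 panels.

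Within early anagen, cells were split by the proliferation genes *Mki67* and *Top2a*. Cycling cells, with at least 1 UMI of either, were 1262 of the 2785 McSCs, and 1523 had none. Genes of the same pathway differed in direction between these cells. *Pgam1* was at 436 CPM in non-cycling and 590 CPM in cycling McSCs, a log2 ratio of cycling over non-cycling of 0.44 (0.41 to 0.47), and *Pgk1* was at 287 and 387 CPM (0.43, 0.39 to 0.47). *Pfkl*, *Ldha*, *Pkm* and *Eno1* were higher by less, with log2 ratios of 0.25, 0.24, 0.23 and 0.22. *Aldoa* was lower in cycling cells, at 399 against 597 CPM, a log2 ratio of -0.58 (-0.61 to -0.55). *Hk2* was lower too, at 17.3 against 24.4 CPM (-0.50, -0.65 to -0.35), as was *Hk1*, at 54.5 against 61.2 CPM (-0.17, -0.26 to -0.08). *Slc2a1*, at 15.6 and 16.6 CPM, had an interval that holds 0 (-0.25 to 0.08).

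By the fixed mark, 0 of the 10 genes were 1.5-fold higher and 0 were 1.5-fold lower in cycling McSCs, where 7.57% of 7453 genes were higher and 2.79% lower. *Aldoa* came nearest, at the 2.8th percentile of all genes, and was past the mark with cells thinned to 10000 UMIs (-0.65), without the 5% of cells of most UMIs (-0.59), with the reduced total (-0.63) and for cells of at least 3 *Mki67* and *Top2a* UMIs against none (-0.74). The reduced total leaves out mitochondrial, ribosomal protein and pigmentation genes. The median log2 ratio of the members was 0.23 (medians of the bounds 0.17 and 0.26), against -0.03 for all genes.

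Graded by UMIs of *Mki67* and *Top2a*, *Aldoa* went from 597 CPM in cells without one to 526 CPM at 1 to 2 UMIs, 438 CPM at 3 to 9 and 323 CPM at 10 or more. The intervals of these 4 classes did not overlap. *Hk2* went from 24.4 to 22.7, 18.0 and 14.4 CPM over the same classes, with overlap between neighbours. *Pgk1* went from 287 to 358, 384 and 402 CPM, and *Pgam1* from 436 to 522, 598 and 618 CPM, so that these genes were graded the opposite way to *Aldoa*. For *Pgk1* and *Pgam1* the intervals of the last 2 classes overlapped, while those of the first 2 lay apart. The classes also differed in depth, with medians of 19698, 24907, 29925 and 41715 UMIs per cell, and they were not graded in thinned cells.

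**Figure D3:**
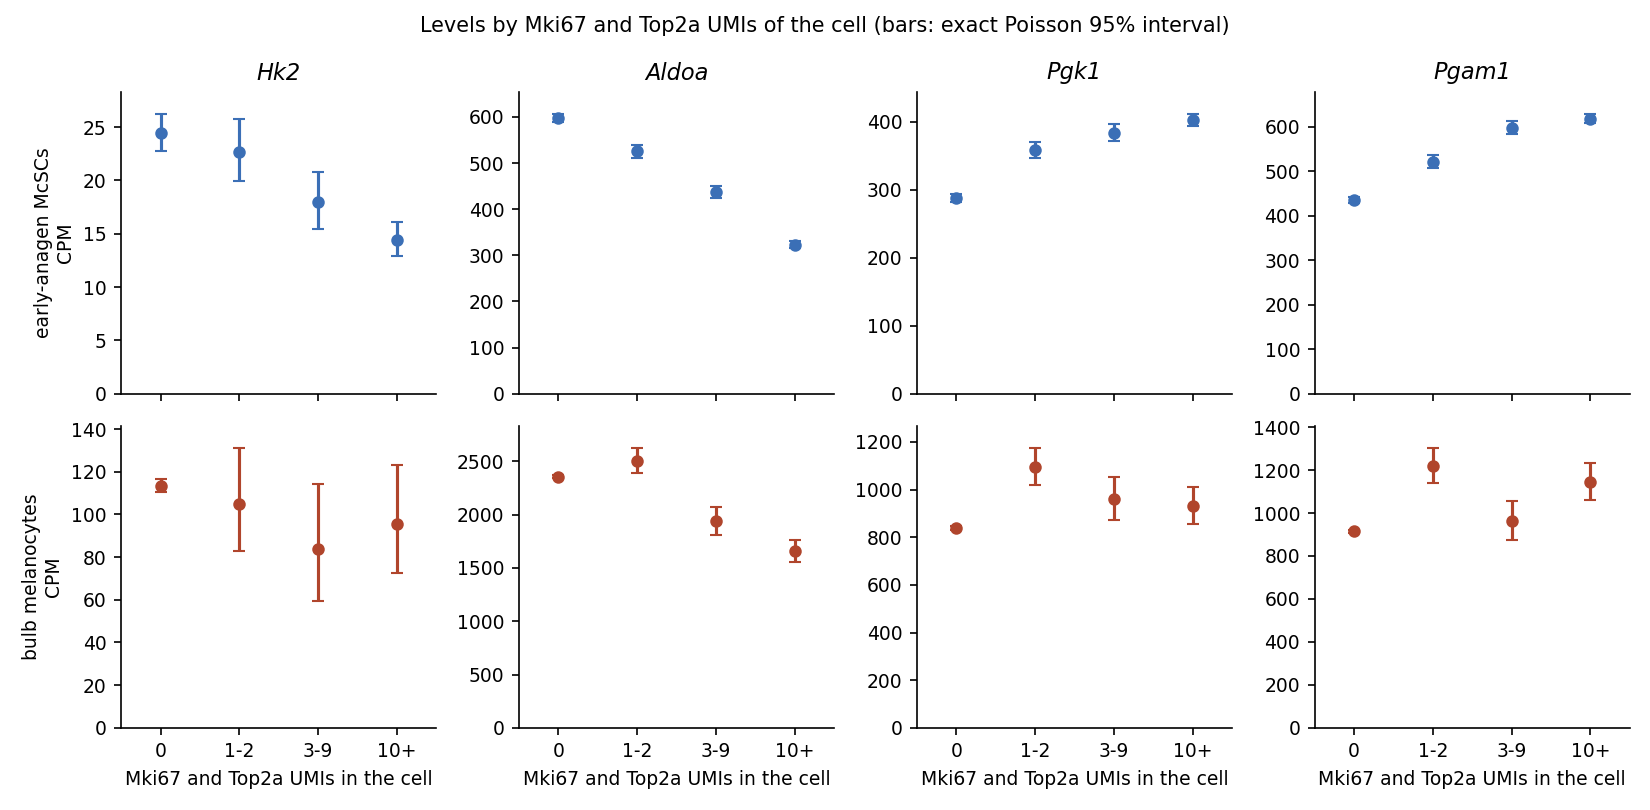
CPM (y axes, from 0) of *Hk2*, *Aldoa*, *Pgk1* and *Pgam1* in classes of cells by *Mki67* and *Top2a* UMIs (x axes), for early-anagen McSCs (top, blue) and bulb melanocytes (bottom, red), with exact Poisson 95% intervals. In McSCs *Aldoa* goes down from 597 to 323 CPM and *Pgam1* up from 436 to 618 CPM; the bulb classes above 0 hold only 42, 23 and 26 cells.

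Cycling McSCs also gave more UMIs per cell, with a median of 33476 UMIs against 19698, and a lower summed level of keratinocyte markers (32.4 against 59.9 CPM). Of 19 stress genes, 5 were at least 1.5-fold lower in cycling McSCs, beside 2.79% of all genes. In McSCs of 10000 to 20000 UMIs alone the ratio of *Aldoa* was -0.45, that of *Hk2* -0.22, that of *Pgk1* 0.28 and that of *Pgam1* 0.17, and the median of the members was 0.066 in place of 0.23. Among *Oca2*- McSCs alone, *Aldoa* stood at -0.55 and *Pgam1* at 0.48. Of the other genes of the same steps, 6 reached 10 CPM in either group and 0 of them passed the mark, with a median log2 ratio of 0.03. Of all genes, 7.57% were higher and 2.79% lower by this mark. *Tpi1* was at 253 CPM in non-cycling and 314 CPM in cycling cells (0.31) and *Ldhb* at 266 and 221 CPM (-0.26), the opposite sign to *Ldha*, while *Gapdh* (0.07), *Pfkp* (0.08), *Gpi1* (-0.01) and *Bpgm* (-0.08) lay close to 0. *Txnip* was at 217 and 145 CPM (-0.59).

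The other split in early anagen used *Oca2*, a gene of melanosome pH that the study treats as a late pigmentation gene. *Oca2*+ McSCs, with at least 1 UMI, numbered 454, and 2331 were *Oca2*-. *Hk2* was the member that differed most. Its level was 14.9 CPM without and 44.3 CPM with *Oca2*, a log2 ratio of 1.57 (1.42 to 1.72), or 2.97-fold, at the 99.7th percentile of all genes. *Hk1* had the opposite sign, with 60.5 CPM without and 43.3 CPM with *Oca2* (-0.48, -0.61 to -0.36). *Aldoa* was at 451 and 624 CPM (0.47, 0.43 to 0.50) and *Ldha* at 635 and 727 CPM (0.19, 0.16 to 0.23). *Eno1* was slightly lower, at 352 and 313 CPM (-0.17, -0.22 to -0.12).

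The remaining members lay close to 0, with *Pkm* at -0.04, *Pgk1* at -0.03, *Pgam1* at -0.02, *Pfkl* at -0.06 and *Slc2a1* at -0.15. Their intervals hold 0, other than that of *Pkm*, which ended at -0.00. As a list, the members had a median log2 ratio of -0.04 (medians of the bounds -0.08 and 0.04) against 0.02 for all genes. By the fixed mark 1 of 10 was higher and 0 were lower, where 3.81% of 7472 genes were higher and 3.06% lower.

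Graded by *Oca2* UMIs of 0, 1, 2 to 3, 4 to 9 and 10 or more, *Hk2* in McSCs was at 14.9, 37.8, 39.5, 51.7 and 58.9 CPM. The step from 0 to 1 UMI was clear of the intervals, and neighbouring classes above it overlapped. *Aldoa* was at 451, 566, 568, 709 and 758 CPM, and *Ldha* at 635, 683, 689, 767 and 855 CPM over the same classes. *Hk1* was at 60.5 CPM without *Oca2* and at 40.4 to 47.9 CPM in the classes with it, whose intervals overlapped each other, and that of the highest class, of 53 cells, also reached the interval of cells without *Oca2*. Depth differed between these classes too, with a median of 23655 UMIs per cell without *Oca2* and 34080 in the highest class. They were not graded in thinned cells.

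**Figure D4:**
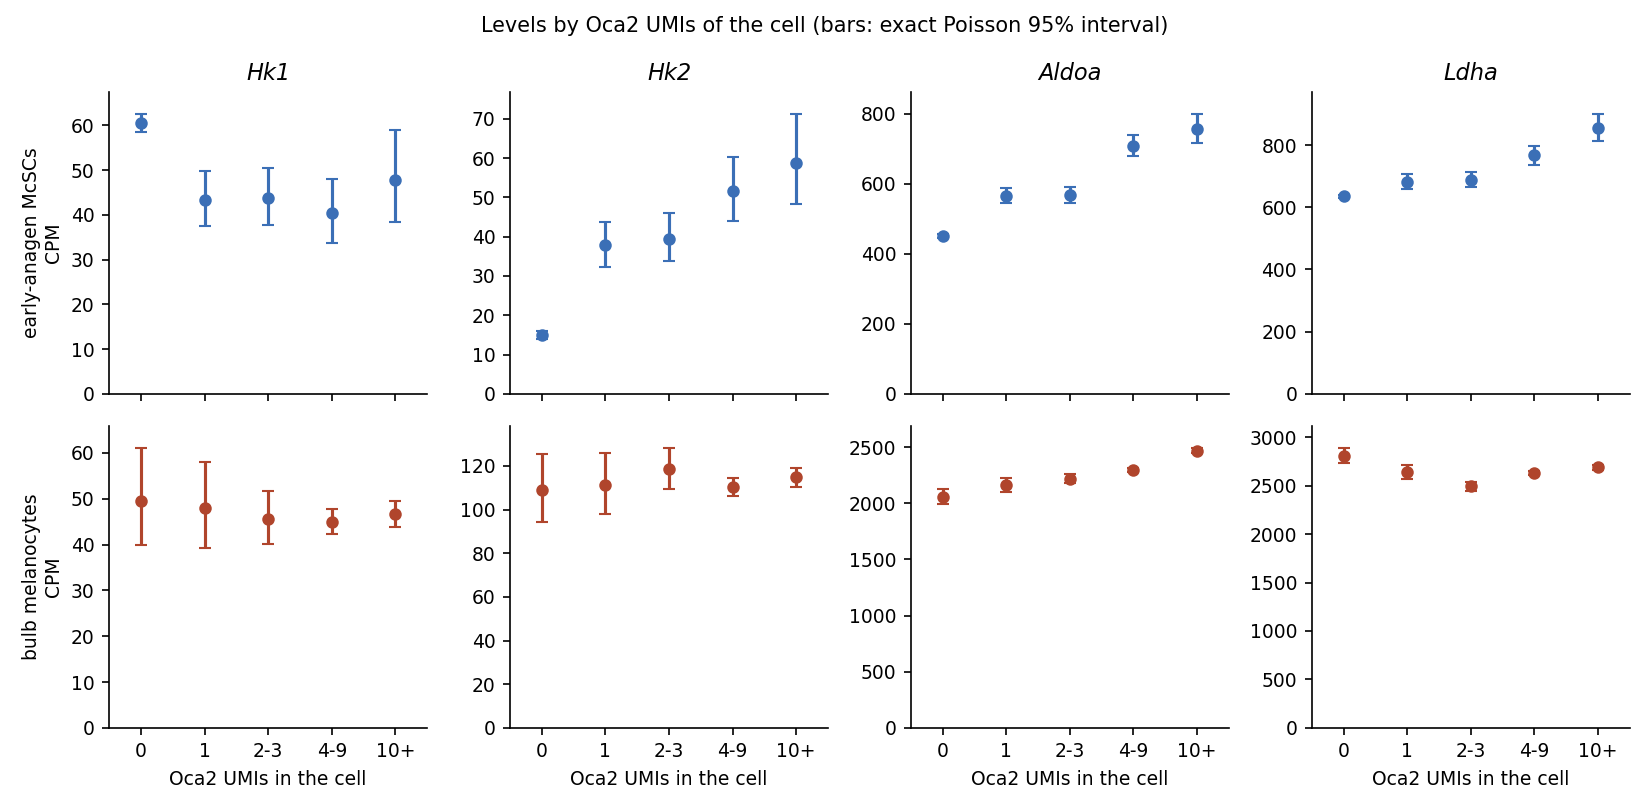
CPM (y axes, from 0) of *Hk1*, *Hk2*, *Aldoa* and *Ldha* in classes of cells by *Oca2* UMIs (x axes), for early-anagen McSCs (top, blue) and bulb melanocytes (bottom, red), with exact Poisson 95% intervals. In McSCs *Hk2* goes from 14.9 to 58.9 CPM and *Hk1* is lower in every class with *Oca2*, while in the bulb *Hk2* stays between 109 and 118 CPM in all 5 classes.

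The difference of *Hk2* was also present among non-cycling McSCs alone, at 18.1 CPM for 1252 cells without and 46.6 CPM for 271 cells with *Oca2* (1.36, 1.15 to 1.57), and in cells of 10000 to 20000 UMIs, at 1.12. Over the cell classes of both libraries, *Hk2* was lowest in cycling *Oca2*- McSCs (12.7 CPM, 11.6 to 13.9) and next in non-cycling *Oca2*- McSCs (18.1 CPM, 16.5 to 19.9). Cycling and non-cycling *Oca2*+ McSCs followed at 41.8 and 46.6 CPM with overlapping intervals, and the bulb classes came last, from 91.6 to 133 CPM, with overlap between neighbours in that order. *Hk2* UMIs were 19.8% (18.7 to 21.0, Clopper-Pearson) of the *Hk1* and *Hk2* UMIs in *Oca2*- McSCs, 50.5% (47.7 to 53.4) in *Oca2*+ McSCs and 71.1% (70.1 to 72.0) in the bulb. This share was chosen after the levels had been seen.

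*Oca2*+ McSCs were deeper, with a median of 28679 UMIs against 23655, and their 8 melanocyte markers summed to 36339 CPM against 22009 CPM. *Mitf* was at 397 CPM without and 667 CPM with *Oca2* (0.75), and *Ppargc1a* at 27.5 and 45.0 CPM (0.71). Of the other genes of the same steps, 6 reached 10 CPM in either group and 0 of them passed the mark, with a median of -0.01. Of all genes, 3.81% were higher and 3.06% lower by this mark. *Gapdh* was at 1712 and 2210 CPM (0.37) and *Pfkp* at 22.7 and 16.7 CPM (-0.45), while *Ldhb* (0.05), *Tpi1* (0.00), *Gpi1* (-0.03) and *Bpgm* (-0.11) lay closer to 0. Immune markers summed to 19.2 and 5.83 CPM and keratinocyte markers to 47.4 and 29.2 CPM in the same order. The part of these in the levels of the members was not tested.

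In the bulb the same splits gave small ratios. Only 91 of 3734 bulb melanocytes had an *Mki67* or *Top2a* UMI, with a median of 20231 UMIs against 14199 for the others. *Pgam1* was at 915 CPM in non-cycling and 1128 CPM in cycling cells (0.30, 0.24 to 0.36), *Pgk1* at 839 and 1004 CPM (0.26), *Pkm* at 1494 and 1735 CPM (0.22) and *Ldha* at 2636 and 3008 CPM (0.19). *Aldoa* was at 2356 and 2074 CPM (-0.18, -0.23 to -0.14) and *Hk2* at 114 and 96.3 CPM (-0.24, -0.46 to -0.02). Over the classes of 0, 1 to 2, 3 to 9 and 10 or more *Mki67* and *Top2a* UMIs, *Aldoa* was at 2356, 2505, 1937 and 1657 CPM, highest in the 42 cells of the second class and lowest in the 26 of the last. The median depth of these classes was 14199, 16159, 19950 and 22574 UMIs. The ratios of *Pgam1*, *Pgk1*, *Pkm*, *Ldha*, *Aldoa* and *Hk2* thus had the sign they had in McSCs, and the difference between libraries was not tested. Intervals of *Slc2a1*, *Hk1*, *Pfkl* and *Eno1* held 0. Stress genes moved with this split, 2 of 16 being higher and 8 lower in cycling cells, and their part was not tested. The median of the members was 0.02, and 0 of 10 were 1.5-fold higher or lower, where 12.5% of 6725 genes were higher and 5.5% lower.

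*Oca2*+ cells made up 3591 of the 3734 bulb melanocytes and 143 were *Oca2*-. There *Hk2* was at 113 CPM with and 109 CPM without *Oca2*, and the interval of its log2 ratio (-0.15 to 0.26) lay under the 1.42 to 1.72 of McSCs. *Aldoa* was higher in *Oca2*+ cells, at 2357 against 2058 CPM (0.20, 0.15 to 0.24), and was graded from 2058 CPM without *Oca2* to 2468 CPM at 10 or more UMIs. *Ldha* was lower, at 2643 against 2806 CPM (-0.086, -0.13 to -0.05), as were *Pgk1* (-0.14), *Eno1* (-0.10) and *Pfkl* (-0.17), and the intervals of the other 5 members held 0. The median of the members was -0.07, against -0.05 for all genes, and 0 of 10 passed the mark, where 3.87% of 6718 genes were higher and 8.25% lower.

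Depth and cell type markers moved with this split. *Oca2*- bulb cells had a median of 11907 UMIs against 14378 for *Oca2*+ bulb cells and 17146 for those with 10 or more *Oca2* UMIs. The 8 melanocyte markers summed to 40630 CPM in *Oca2*- against 68321 CPM in *Oca2*+ bulb cells. Keratinocyte markers summed to 865 CPM in *Oca2*- against 19.6 CPM in *Oca2*+ bulb cells, hair matrix and shaft markers to 96.3 against 6.51 CPM, and fibroblast markers to 11.1 against 0.48 CPM. Of these keratinocyte and matrix UMIs in *Oca2*- cells, 73.9% lay in 10 cells. With only the bulb cells that had fewer than 3 such UMIs, a choice made after the data were seen that kept 118 of 143 *Oca2*- cells, the ratio of *Aldoa* was 0.04 in place of 0.20, that of *Ldha* was -0.17, that of *Hk2* was -0.13 and the median of the members was -0.15.

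Cells were also described 1 by 1, each thinned at random to 5000 UMIs. The summed level of the 10 genes had a median of 2600 CPM in McSCs, with 1200 and 4800 CPM as the 5th and 95th percentiles, and a median of 8800 CPM in the bulb, with 4400 and 16200 CPM. In the bulb 7.98% of cells lay at or under the 95th percentile of McSCs, and 9.12% of McSCs lay at or above the 5th percentile of the bulb.

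**Figure D5:**
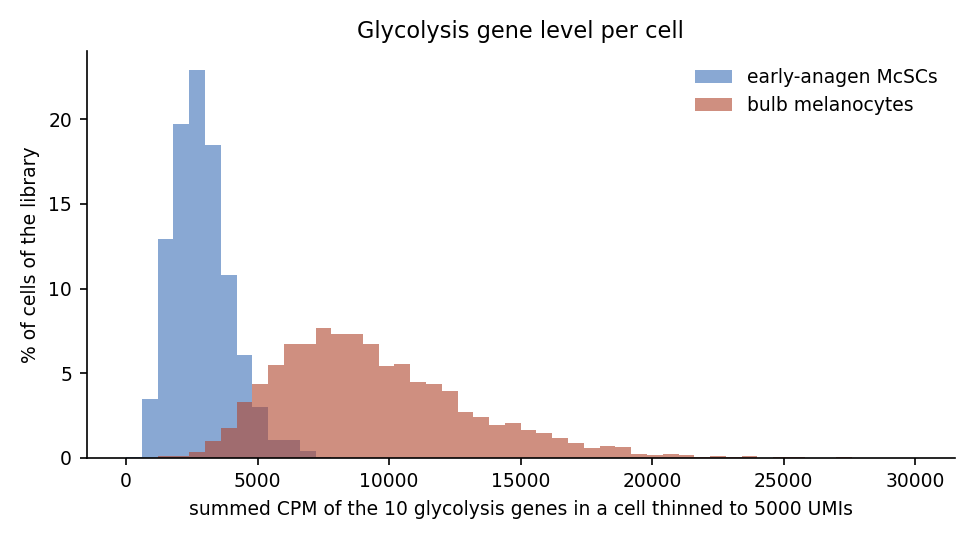
Share of cells of each library (y axis, %) by the summed CPM of the 10 glycolysis genes in a cell thinned to 5000 UMIs (x axis, bins of 600 CPM), for 2785 early-anagen McSCs (blue) and 3734 bulb melanocytes (red). The libraries meet around 4800 CPM. In CPM the bulb distribution is the wider one, with its 5th and 95th percentiles at 4400 and 16200 CPM against 1200 and 4800 CPM in McSCs. Its level is also higher, and the width relative to the level was not compared.

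Pearson correlations across these thinned cells are given as descriptions, since cells share a library and a depth. In the bulb the highest of the 45 member pairs were *Aldoa* and *Ldha* (r = 0.54), *Pkm* and *Ldha* (0.47), *Pgk1* and *Ldha* (0.46) and *Pgam1* and *Ldha* (0.42). *Hk1* and *Hk2* were the lowest pair there, at -0.02, and the other pairs of *Hk2* gave 0.01 to 0.08. At 46.0 and 113 CPM, *Hk1* and *Hk2* have few UMIs in a cell of 5000 UMIs. *Pfkl*, at 167 CPM, had r = 0.25 with *Aldoa* and 0.34 with *Ldha*, where *Hk2* had 0.02 with each. *Slc2a1*, at 47.2 CPM, had 0.08 and 0.07 with the same genes. The part of counting error in these pairs was not tested. In McSCs the highest pair was *Pgam1* and *Ldha*, at 0.23. A McSC held a mean of 13.9 UMIs of the members at 5000 UMIs and a bulb cell 46.5. The part of this difference in the lower McSC values was not tested.

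Chosen after the levels were seen, relations of the summed level to other genes were read in the same cells. In the bulb the summed level had r = 0.52 with *Tpi1*, 0.42 with *Gapdh*, 0.43 with the summed HIF list, 0.39 with *Slc16a3*, 0.38 with *Bnip3* and 0.36 with *Higd1a*, and -0.00 with *Ldhb* and -0.04 with the summed pigmentation genes. *Higd1a* and *Bnip3* belong to the HIF list and gave 3.39 and 0.47 of its mean of 5.44 UMIs per thinned bulb cell. The value of the list is therefore not separate from theirs and does not describe its genes as a whole. In McSCs it had r = 0.28 with *Gapdh* and 0.28 with the UMIs of the cell before thinning, against 0.13 with these UMIs in the bulb. The McSC values were 0.17 with *Tpi1*, 0.08 with the summed HIF list, 0.04 with *Slc16a3*, 0.03 with *Bnip3* and 0.19 with *Higd1a*. With *Ldhb* and the summed pigmentation genes they were -0.04 and -0.11. With the mitochondrial share of the cell and the summed dissociation and stress genes the summed level had r = -0.20 and -0.18 in McSCs. The same values in the bulb were -0.05 and -0.04. A McSC held a mean of only 0.01 *Slc16a3* and 0.04 *Bnip3* UMIs at 5000 UMIs.

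Likeness was finally ranked over 6 groups of cells, namely non-cycling *Oca2*-, non-cycling *Oca2*+ and cycling cells of each library. Of 3498 genes at 50 CPM or more in either library, the 5 whose log2 level ran closest to the summed members were *Slc16a3*, *Ppp4c*, *Elp5*, *Mmd* and *Pgm1*, all with r above 0.999. Their levels in McSCs and the bulb were 2.43 and 62.4 CPM for *Slc16a3*, 72.6 and 192 CPM for *Ppp4c*, 30.2 and 101 CPM for *Elp5*, 17.9 and 110 CPM for *Mmd*, and 15.9 and 80.9 CPM for *Pgm1*. All but *Ppp4c* passed the limit of 50 CPM only through the bulb, where they are high. The limit thus lets in genes that are high in 1 library alone. The groups fall into a low and a high cluster by library, so that any gene that differs mainly between libraries scores high on this measure.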

How the data were processed

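Each library was aligned to mm10 and its UMIs counted by the authors with Cell Ranger 6.0.1, as named in the submitters' processing notes. The deposited values are raw UMI counts per gene and barcode, with no filter on cell type or mitochondrial share applied. From these counts, cells were kept as given above, after the filter in the study's methods with *Dct* and keratin limits in place of clusters. No doublet caller was run, and leaving out the 5% of cells with the most UMIs was an alternative. Rows that share a symbol were summed. UMIs were summed over groups of cells and scaled to CPM, with exact 95% intervals from scipy 1.17.1 and TMM factors from edgeR 4.0.16 in R 4.3.3. The ratio code was tested on simulated data. The background of a comparison is all genes with a mean of at least 10 CPM and a UMI in both groups. Genes of the lists were counted at 10 CPM or more in either group, so that some listed genes lie outside this background. All 10 members were named, and, for bulb over early anagen, every other gene of the same steps at 10 CPM and of each other list the 3 of highest level and the 2 of largest ratio in each direction. In the McSC splits the genes of the same steps were named likewise, and *Txnip*, *Mitf* and *Ppargc1a* were named there after their values were seen. Members, lists and motifs were chosen with earlier results of these data known. Gene positions come from GENCODE M21 (GRCm38) and promoters from RefSeq (GRCm38.p6). No protein sequence was used here, and 0 columns of per-sample values were left out.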

Additional observations from a re-analysis of the deposited data

Results flagged for a closer look

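*Ldha* differed in sign between the libraries in the *Oca2* split. In early-anagen McSCs it was at 635 CPM without and 727 CPM with *Oca2*, a log2 ratio of 0.19 (0.16 to 0.23). In the bulb it was at 2806 CPM without and 2643 CPM with *Oca2*, a log2 ratio of -0.086 (-0.13 to -0.05). The difference between the libraries was not tested. In bulb cells thinned to 5000 UMIs before classing the ratio was 0.04, and in bulb cells with fewer than 3 keratinocyte and matrix UMIs it was -0.17.

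Barcodes that passed the depth and mitochondrial limits but lacked *Dct* or had 3 or more keratin UMIs entered no comparison. The 10 genes summed to 3026 CPM in 679 such early-anagen barcodes and to 6226 CPM in 40 such bulb barcodes. They are given as levels outside the comparisons and were compared with nothing.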

How the results depend on the processing

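For bulb over early anagen, 9 of 10 members were at least 1.5-fold higher and 0 lower under each of 14 alternatives, and 139 of 140 single ratios kept their sign. The exception was *Hk1* with *Oca2*+ cells alone (0.08). At the main setting 27.1% of all genes were higher and 36% lower by this mark. These shares were not counted anew under the alternatives, here or for the splits that follow. TMM factors, centring and the reduced total move every gene, so that these shares can move as well. The median of 1.67 became 1.51 with a total free of mitochondrial, ribosomal protein and pigmentation genes, 1.98 with TMM factors, 1.78 centred on all genes, 1.85 thinned, 1.73 without cycling cells, 1.52 with *Oca2*+ cells and 1.89 at 10000 to 20000 UMIs. With the main ratios and every gene that had a UMI in both libraries as background, 23.3% of 15497 genes were higher and 44.9% lower. For cycling over non-cycling McSCs, all 100 ratios kept their sign. The median of 0.23 became 0.30 with TMM factors and 0.066 at 10000 to 20000 UMIs. The count of genes 1.5-fold lower went from 0 to 1 with thinning, without the deepest 5% of cells or with the reduced total (*Aldoa*), to 1 without any keratin UMI (*Hk2*, -0.60), and to 2 (both) at 3 or more *Mki67* and *Top2a* UMIs. For *Oca2*+ over *Oca2*- McSCs, 90 of 100 ratios kept their sign, and *Hk2* was the 1 gene past the mark under all 10 alternatives. The median of -0.04 became -0.087 with TMM factors, 0.087 at 10000 to 20000 UMIs, where 1 gene (*Hk1*, -0.71) was also 1.5-fold lower, and 0.044 in non-cycling cells. In the bulb, 37 and 33 of 40 ratios kept their sign for the cycling and *Oca2* splits, and the latter's median of -0.07 became -0.15 with few keratinocyte and matrix UMIs. The depth window and this last limit were chosen after the data were seen, and causes were not tested. No paired analysis was possible because each condition had 1 library. Leaving out a replicate was not possible for the same reason. Counting error limits *Slc2a1*, *Hk1* and *Hk2* in the small classes, where a class can hold as few as 3 UMIs.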

Other observations

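Shares of UMIs between isoforms of a step, chosen after the levels had been seen, differed between the libraries for some steps and little for others (Clopper-Pearson 95% intervals, counting error only). *Slc16a3* made up 8.21% (7.10 to 9.42) of the *Slc16a1* and *Slc16a3* UMIs in early-anagen McSCs and 86.7% (85.6 to 87.7) in the bulb. Unlike the share of *Hk2*, it was near the early-anagen value in *Oca2*+ McSCs, at 9.40% (6.83 to 12.5). *Ldha* made up 73.1% of *Ldha* and *Ldhb* UMIs in McSCs, 74.8 to 75.2% (its interval) in the bulb, and 82.6% (81.7 to 83.5) in cycling bulb melanocytes. *Pfkl* made up 60.9% of the UMIs of *Pfkl*, *Pfkm* and *Pfkp* in McSCs and 66.9% in the bulb, and *Slc2a1* 88.1% and 99.5% of those of *Slc2a1* and *Slc2a3*, the transporter GLUT3.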
